A study of Rattus norvegicus with 55 samples.

Results

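The cytosolic ribosome of rat kidney was followed through the genes of its proteins on 55 Affymetrix arrays, each hybridised with total RNA of kidney. The members were all genes whose platform symbol starts with Rpl or Rps and a digit, leaving out the Rps6k kinases, and each gene was read from the probe set with the highest mean over the 55 arrays. The rule found 41 genes among the 4737 named genes of the array, 28 of the large subunit (Rpl) and 13 of the small subunit (Rps). Of these, 40 passed the filter on dim probe sets. The dropped member was Rps2-ps1, a pseudogene, whose intensity lay at 5.7 to 84.7 over all arrays. Rps4x-ps9 is also a pseudogene, Rpl19l4 is by name a copy of the member Rpl19, Rpl36al1 is by name a copy of a gene that is no member, and Rpl3l and Rps27l are paralogs that RefSeq keeps as genes of their own. The array holds no member named Rps19, Rpl10, Rpl32 or Rps27a under this rule. Ribosomal protein genes have many near-identical copies, so a probe set may read more than the gene it is named for.

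All samples carry the title of SHR kidney, SHR being the usual name of the spontaneously hypertensive rat, while their descriptions say that the rats were derived from Wistar. The descriptions separate 13 arrays of immature kidney, 14 of young kidney and 14 of mature kidney, and another 14 arrays have a description with no stage word. No treatment, genotype, sex or age is given for any of these 4 groups, and nothing says which arrays came from separate animals, so a p-value here speaks only of the spread among the listed samples, part of which can be technical. The arrays were also divided at an intensity of 600 on X56596_at, the probe set of RT1-Bb, a class II histocompatibility gene. On 12 arrays, 3 of each stage description, it lay at 1411.5 or more, and on the other 43 at 263.0 or less. This division comes from a measured value and from no label, so the levels on its sides are described without a test.

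The ribosome consists of ribosomal RNA and many small proteins spread over a large and a small subunit, and cells that grow or divide make more of them. In mammals most mRNAs of these proteins begin with a run of pyrimidines at the cap, the terminal oligopyrimidine tract, through which the mTOR pathway controls their translation. Ribosomal proteins left over outside the ribosome also act elsewhere: Rpl5 and Rpl11 bind Mdm2, which restrains p53.

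The start of 10 member genes is shown with its runs of pyrimidines. They are the 7 members that were lower in all 3 comparisons with immature kidney, Rpl5, and Rpl11 and Rpl3 as members without a long run. Each line gives 60 bases of RefSeq sequence of assembly GRCr8 on the strand of the gene, 30 before and 30 from the annotated transcript start onward. Capitals mark the longest run of C and T anywhere in the 60 bases, which need not be the tract at the cap. The runs of Rpl21 and Rpl5 began 25 and 14 bases before the annotated start and ended before it.

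Rpl31, chr9:49143081-49143140, plus strand: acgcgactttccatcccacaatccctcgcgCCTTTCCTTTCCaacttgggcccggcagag
Rpl35a, chr11:81234992-81235051, minus strand: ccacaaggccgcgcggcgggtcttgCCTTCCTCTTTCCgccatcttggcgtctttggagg
Rpl22, chr5:168117931-168117990, plus strand: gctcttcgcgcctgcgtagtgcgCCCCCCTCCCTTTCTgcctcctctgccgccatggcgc
Rpl21, chr12:13386124-13386183, minus strand: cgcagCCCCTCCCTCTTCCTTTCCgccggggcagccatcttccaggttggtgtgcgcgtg
Rps15, chr7:10068086-10068145, minus strand: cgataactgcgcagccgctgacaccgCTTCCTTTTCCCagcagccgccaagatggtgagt
Rps10, chr20:5700715-5700774, minus strand: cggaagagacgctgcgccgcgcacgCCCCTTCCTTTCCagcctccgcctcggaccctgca
Rps23, chr2:23814487-23814546, plus strand: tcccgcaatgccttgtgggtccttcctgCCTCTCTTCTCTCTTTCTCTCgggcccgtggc
Rpl5, chr14:1995196-1995255, minus strand: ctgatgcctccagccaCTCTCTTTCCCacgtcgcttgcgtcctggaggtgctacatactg
Rpl11, chr5:153560773-153560832, minus strand: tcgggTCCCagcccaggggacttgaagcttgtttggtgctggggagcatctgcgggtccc
Rpl3, chr7:113507961-113508020, minus strand: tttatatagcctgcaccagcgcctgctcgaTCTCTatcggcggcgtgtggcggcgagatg

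The run of Rpl31 was 12 bases long and began at the annotated start itself, that of Rpl35a was 13 bases and began 5 bases before it, and that of Rps23 was 21 bases. The longest run in Rpl11 had 4 bases and in Rpl3 5 bases. RefSeq promoter windows were matched to 34 of the 41 members. A run of 8 or more C and T within 30 bases of the start was present in 26 of the 34 (76.5%) and in 4595 of 19005 protein-coding genes (24.2%). Over the whole window, 250 bases before to 50 after the start and both strands, CCGGAAGT was found in 5 of the 34 (14.7%, against 5.12% of protein-coding genes), AAGATGGC in 4 (11.8%, against 4.08%) and TATAAA in 3 (8.82%, against 14.0%). These are matches of letters and no measurement of binding or of translation.

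The summed picture of the 40 tested members was highest in immature kidney. For each array the log2 deviation of every member from its own mean over the 55 arrays was averaged over the members. This score lay between 0.03 and 0.39 on the immature arrays, with a median of 0.18. In young kidney it lay between -0.18 and 0.11, with a median of -0.06, in the group with no stage word between -0.23 and 0.06, with a median of -0.04, and in mature kidney between -0.32 and 0.07, with a median of -0.004. All 13 immature arrays lay above 0, as did 17 of the other 42, and 7 immature arrays lay above every array of the other groups, so the groups overlapped at the lower end of the immature range.

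**Figure D1:**
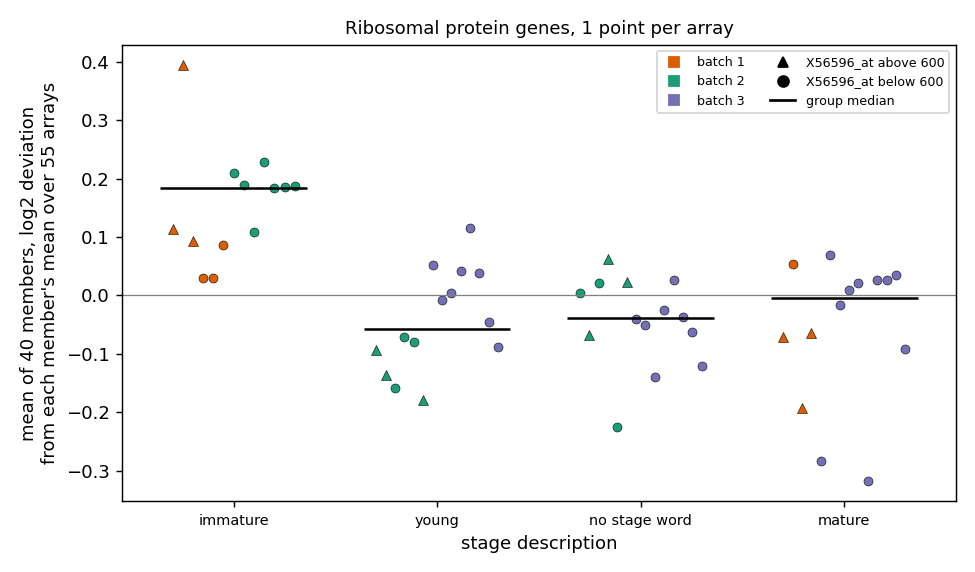
Score of the 40 members on each array (vertical axis, mean log2 deviation from each member's mean over 55 arrays) by stage description, with colour for the batch from control probe sets, triangles for arrays with X56596_at above 600 and bars for group medians. The immature arrays lie between 0.03 and 0.39 and the 2 lowest mature arrays at -0.28 and -0.32.

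The 2 lowest scores, -0.28 and -0.32, were those of mature replicates 1 and 9, on which the 3' probe set of GAPDH read 7.18 and 3.47 times its 5' probe set, as happens when RNA is broken down. The array's control probe sets, with that of 5S ribosomal RNA, divided the arrays into 3 sets, called batches here although no label names one. The immature arrays fell into batch 1 (6) and batch 2 (7), and the mature ones into batch 1 (4) and batch 3 (10). Both the young arrays and those with no stage word fell into batch 2 (6 each) and batch 3 (8 each). The immature score lay at 0.03 to 0.39 in batch 1, against -0.19 to 0.05 on the mature arrays there, and at 0.11 to 0.23 in batch 2, against -0.18 to -0.07 on the young arrays there and -0.23 to 0.06 on those with no stage word. A probe set holding 18S ribosomal RNA sequence also separated the immature arrays, with 13775.2 to 20470.5 in batch 2 and 12.7 to 63.5 in batch 1. Its part in the score was not tested.

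Each member was then compared between groups in 1 limma fit over the 6555 probe sets tested, with Benjamini-Hochberg adjustment over all of them and a threshold of 0.05. In mature against immature kidney 14 of the 40 members were lower and 1 was higher, where 14.1% of all probe sets were lower and 10.3% higher. The members' median log2 change was -0.245 and that of all probe sets 0.042, and 34 of the 40 members had a change below 0. In young against immature kidney 14 were lower and 0 higher, against 9.21% and 9.47% of all probe sets, with a median of -0.246 and 36 members below 0. In the group with no stage word against immature kidney 15 were lower and 1 higher, against 14.4% and 12.7%, with a median of -0.266 and 33 below 0. The 3 comparisons share the immature arrays, so they are not separate evidence. The F test over the 4 groups called 18 of the 40 members (28.5% of all probe sets). In bulk kidney, fewer cells of a type and less RNA per cell cannot be told apart.

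**Figure D2:**
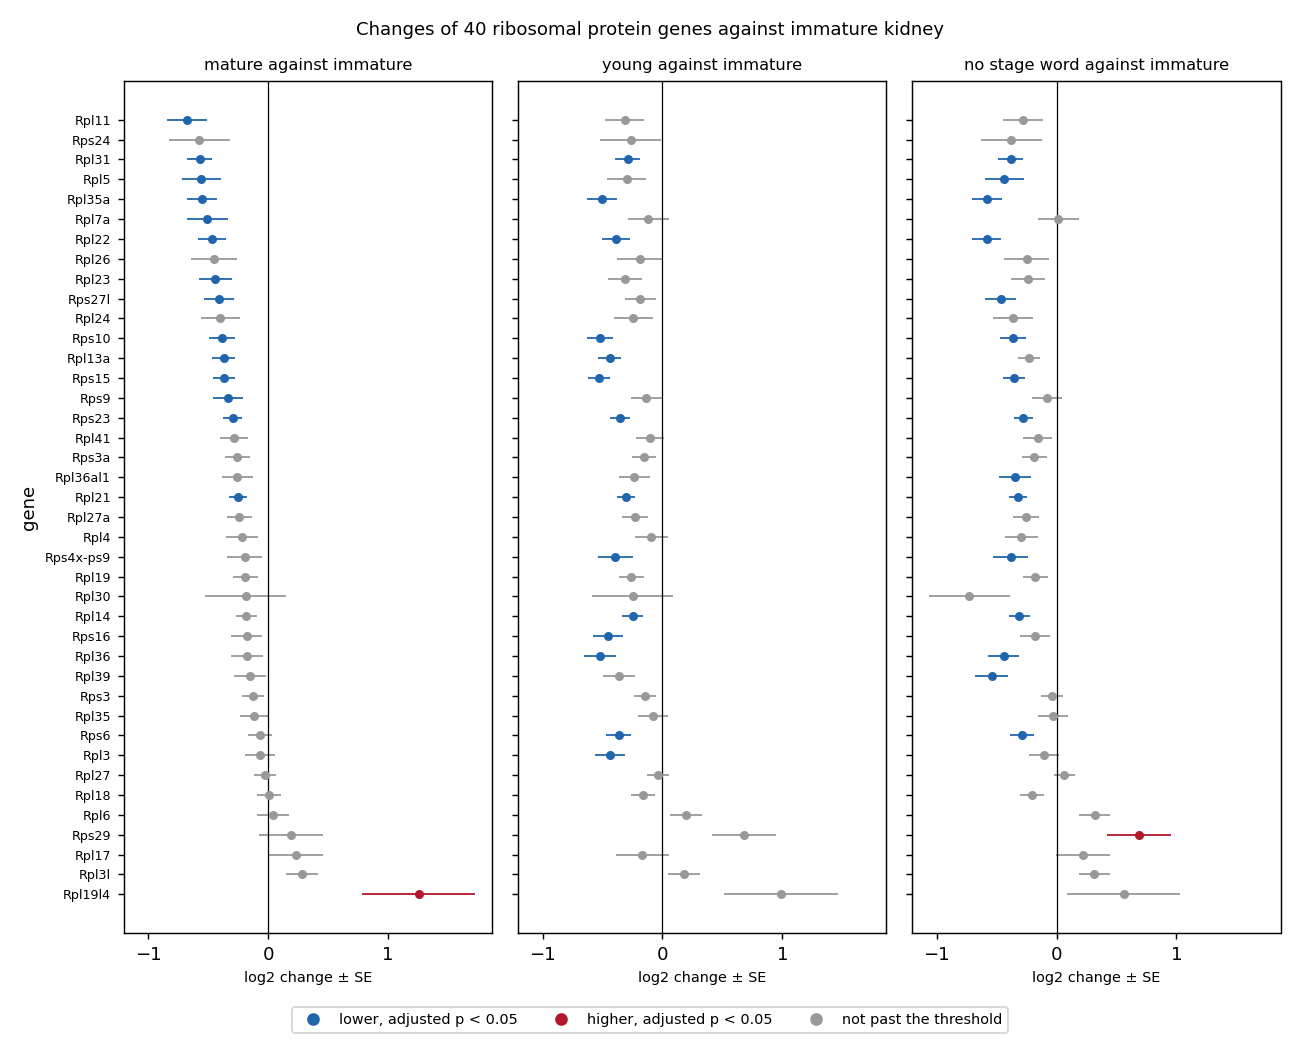
Log2 change of each of the 40 members against immature kidney, with its standard error (bars), for mature kidney, young kidney and the group with no stage word; genes are ordered by the first panel. Blue points (lower, adjusted p under 0.05) number 14, 14 and 15, and red points (higher) 1, 0 and 1.

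With batch as an additive block the members called lower were 7 in mature (7.67% of all probe sets), 7 in young (4.38%) and 11 in the group with no stage word (11.4%). In each of the 3 comparisons 0 were higher, where 4.97%, 4.52% and 8.68% of all probe sets were, and the members' medians were -0.212, -0.22 and -0.214. Of the 14 called in mature against immature kidney 4 were also called with the block, Rpl23, Rpl31, Rpl35a and Rpl5. In young kidney Rpl13a, Rpl35a, Rps15, Rps23 and Rps6 were called both ways, and in the group with no stage word Rpl22, Rpl31, Rpl35a, Rpl39, Rps27l and Rps6. Rpl35a was the member called both ways in all 3 comparisons.

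The members of the large subunit come first. Rpl31, a protein near the exit of the tunnel through which the new peptide leaves the ribosome, had intensities of 5774 to 7868 in immature kidney (median 6586). Its median was 5555 in young kidney (4877 to 6225), 5074 in the group with no stage word (3547 to 6522) and 5052 in mature kidney (2224 to 5741). No mature array reached the lowest immature one, a separation that 0.32% of all probe sets showed in this direction, while young and immature arrays overlapped. Rpl31 was lower by a log2 change of -0.57 ± 0.10 (SE) in mature kidney (limma, adjusted p = 4.1e-05), or 1.49-fold. The changes were -0.29 ± 0.10 in young kidney (adjusted p = 0.043) and -0.38 ± 0.10 with no stage word (adjusted p = 0.00433). Inside batch 1 the mature arrays lay at 3726 to 5406 and the immature arrays at 5774 to 7868. How many of all probe sets lie wholly apart on arrays of a single batch was not counted, here or for the members below. Without mature replicates 1 and 9, which read 2459.4 and 2224.5, the change was -0.41 ± 0.07 (adjusted p = 1.8e-05). The call in young kidney was lost on leaving out any 1 of 16 arrays, with the change between -0.31 and -0.27.

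Rpl35a, whose loss is one cause of Diamond-Blackfan anaemia in people, fell in all 3 comparisons. Its median intensity was 2764 in immature kidney (1739 to 3519), 1906 in young kidney (1027 to 2335), 1799 with no stage word (966.1 to 2453) and 1893 in mature kidney (958.7 to 2156). The immature arrays overlapped the others through those of batch 1, which lay at 1739 to 2764, while those of batch 2 lay at 2610 to 3519, above all arrays of the other 3 groups. The log2 change was -0.55 ± 0.13 in mature (adjusted p = 9.3e-04), -0.51 ± 0.13 in young (adjusted p = 0.00348) and -0.58 ± 0.13 with no stage word (adjusted p = 4.1e-04, limma).

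Rpl22, a large-subunit protein that the ribosome can do without in many cells, was lower in mature (-0.47 ± 0.12, adjusted p = 0.00298), young (-0.39 ± 0.12, adjusted p = 0.019) and no stage word kidney (-0.58 ± 0.12, adjusted p = 2.1e-04). Its immature arrays ranged from 2914 to 7676, the widest relative spread among the members lower in all 3, with the lowest value, 2914.5, on replicate 1 and the next at 5087.8. The mature arrays ranged from 2520 to 5844 with a median of 4763, against 6804 in immature kidney. On the arrays with X56596_at above 600 alone, where immature replicate 1 is 1 of 3 immature arrays, the changes of Rpl22 were 0.11, 0.22 and 0.10 ± 0.28 in mature, young and no stage word kidney (adjusted p = 0.856, 0.633 and 0.838). Rpl21 had the smallest spread of all members, a within-group SD of 0.17 on the log2 scale, and was lower by 0.25 to 0.32 in the 3 comparisons. None of its further probe sets was called. The brightest of them changed by -0.19, -0.11 and -0.34 and the dimmest by 0.05, -0.12 and 0.28 in mature, young and no stage word kidney. The young arrays of Rpl21 (2747 to 3249) lay below every immature array (3302 to 4775), so the groups did not overlap. Such a separation of young from immature arrays was also present for Rpl36 and Rps15, and for 0.473% of all probe sets, while with no stage word 0 members lay wholly below the immature arrays (0.564% of all probe sets). Rpl36 changed by -0.52 ± 0.13 in young kidney (adjusted p = 0.00367) and -0.44 ± 0.13 with no stage word (adjusted p = 0.00901), and by -0.18 ± 0.13 in mature kidney (adjusted p = 0.331). Its mature arrays ranged from 2708 to 9100 with a median of 3664. Without the mature arrays of GAPDH ratio above 3, Rpl36 was called lower in mature kidney as well.

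Rpl39, a small protein lining the exit tunnel, was lower with no stage word (-0.54 ± 0.14, adjusted p = 0.00179), from a median of 3152 in immature kidney to 2215. Its changes in young (-0.36, adjusted p = 0.0516) and mature kidney (-0.15, adjusted p = 0.425) did not pass. Rpl13a, which as a free protein takes part in silencing of inflammatory mRNAs, was lower in young (-0.44 ± 0.10, adjusted p = 8.3e-04) and mature kidney (-0.37 ± 0.10, adjusted p = 0.00277), with medians of 3518 in immature, 2605 in young and 2744 in mature kidney. Its other probe set was not called in young (-0.22, limma, adjusted p = 0.075) or mature kidney (-0.22, adjusted p = 0.0618). With no stage word that probe set was called lower (-0.30, adjusted p = 0.0114). Rpl7a was lower in mature kidney (-0.51 ± 0.17, adjusted p = 0.0228), where mature replicates 1 and 9 read 1065.8 and 1039.8 and the next lowest mature array 2320.8. Without these 2 arrays its change was -0.22 ± 0.11 (adjusted p = 0.122), and leaving out either of them also ended the call, with changes between -0.56 and -0.37 when any 1 array was left out. Among members of the large subunit 9 of 28 were lower and 1 was higher in mature kidney, 8 and 0 in young kidney and 9 and 0 with no stage word. Their medians were -0.229, -0.244 and -0.253. Of all probe sets 14.1%, 9.21% and 14.4% were lower and 10.3%, 9.47% and 12.7% higher.

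Rpl5 and Rpl11 enter the ribosome together with 5S ribosomal RNA. Rpl11 had a median of 7013 in immature kidney (4308 to 10800), 5929 in young (4477 to 6552), 5417 with no stage word (4750 to 7578) and 5437 in mature kidney (1286 to 6384). It was lower in mature kidney by -0.68 ± 0.17 (adjusted p = 0.00181), the largest fall of any member in that comparison. The 2 lowest mature arrays, 1285.9 and 1426.3, were replicates 1 and 9, and without them the change was -0.39 ± 0.10 (adjusted p = 0.00256). Its changes in young (-0.32, adjusted p = 0.18) and no stage word kidney (-0.28, adjusted p = 0.207) did not pass. Another probe set of Rpl11 was lower in mature (-0.55 ± 0.10, adjusted p = 4.8e-05), young (-0.42, adjusted p = 0.00197) and no stage word kidney (-0.42, adjusted p = 0.00121). The probe set of Rpl5 was dim, at 71.9 to 226.4 in immature kidney. Its change was -0.56 ± 0.17 in mature kidney (adjusted p = 0.00992) and -0.44 ± 0.17 with no stage word (adjusted p = 0.0419). The high arrays of Rpl5 were the immature arrays of batch 1 (99.3 to 226.4), whereas those of batch 2 (71.9 to 94.1) lay within the mature range of 21.2 to 94.7. Without mature replicates 1 and 9 the mature change was -0.38 ± 0.15 (adjusted p = 0.0523). The call with no stage word was lost on leaving out any 1 of 10 arrays, with the change between -0.49 and -0.35.

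The members of the small subunit follow. Rps15, a protein of the head of the small subunit, had a median of 5587 in immature kidney (5158 to 8767) and of 4087 in young kidney (3216 to 4782), with no overlap between these groups. Mature kidney had a median of 4464 (3584 to 5336) and the group with no stage word 4306 (3087 to 6148), and both overlapped the immature range. The log2 changes were -0.53 ± 0.09 (young, adjusted p = 2.4e-05), -0.37 ± 0.09 (mature, adjusted p = 0.00166) and -0.35 ± 0.09 (no stage word, adjusted p = 0.00228). Inside batch 1 the mature arrays (5059 to 5336) overlapped the immature ones (5158 to 8767). Inside batch 2 the arrays with no stage word (4601 to 6148) overlapped the immature ones (5180 to 6221), while the young ones lay at 4021 to 4574. The share of all probe sets lying wholly apart inside a batch was not counted, so no separation is read here.

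Rps10, which sits near the entry of the mRNA channel, fell in all 3 comparisons, by -0.52 ± 0.11 in young (adjusted p = 4.3e-04), -0.38 ± 0.11 in mature (adjusted p = 0.0058) and -0.37 ± 0.11 with no stage word (adjusted p = 0.00767). Its median was 3626 in immature, 2521 in young, 2740 with no stage word and 2634 in mature kidney. The mature arrays of batch 1 (3641 to 4515) lay within the immature range of that batch (2817 to 4790), and the low mature values were those of batch 3 (1942 to 2709). Rps23, a protein of the decoding centre, was lower by 0.28 to 0.35 in all 3 comparisons, and its young arrays (2190 to 3973) overlapped the immature ones (3034 to 4582). Rps16 was lower in young kidney (-0.46 ± 0.13, adjusted p = 0.00873), where its arrays lay at 4442 to 6157 against 6003 to 10820. It changed by -0.18 in both of the other comparisons with immature kidney (adjusted p = 0.305 in mature, 0.299 with no stage word). The mature arrays of Rps16 ranged from 4839 to 13650 with a median of 5477. Without the mature arrays of GAPDH ratio above 3, Rps16 was called lower in mature kidney. Inside batch 2 the direction was opposite, with Rps16 at 8122 to 9473 with no stage word and 6792 to 7880 in immature kidney. The arrays with no stage word in batch 3, which has no immature array, read 4437 to 5898.

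Rps6 is the protein that S6 kinase phosphorylates downstream of mTOR. It was lower in young (-0.36 ± 0.10, adjusted p = 0.00876) and no stage word kidney (-0.29 ± 0.10, adjusted p = 0.0288), with medians of 5824 in immature, 4424 in young and 4849 with no stage word. The call with no stage word was lost without immature replicate 2, and its change lay between -0.31 and -0.25 when any 1 array was left out. In mature kidney its change was -0.07 ± 0.10 (adjusted p = 0.645) with a median of 4997 and a highest value of 14102.3, on replicate 9. Without mature replicates 1 and 9 the change was -0.19 ± 0.07 (adjusted p = 0.0465). The other probe set of Rps6 changed by -0.63 ± 0.15 in mature kidney (adjusted p = 0.00159). Rps3, at the entry of the mRNA channel and with a role in DNA repair, had medians of 5727, 5494, 6031 and 5703 in immature, young, no stage word and mature kidney, and its changes of -0.14, -0.04 and -0.13 against immature kidney in this order did not pass (adjusted p = 0.278, 0.767 and 0.319). Rps27l, a paralog of Rps27 known as a p53 target, was lower with no stage word (-0.47 ± 0.13, adjusted p = 0.00475) and in mature kidney (-0.41 ± 0.13, adjusted p = 0.0144). Without mature replicates 1 and 9 the mature change of Rps27l was -0.25 ± 0.11 (adjusted p = 0.0722), and inside batch 1 it was 0.17 ± 0.21 (adjusted p = 0.759). Of the 12 tested small-subunit members 5 were lower and 0 higher in mature, 6 and 0 in young and 6 and 1 in no stage word kidney. Their medians were -0.277, -0.309 and -0.283. Of all probe sets 14.1%, 9.21% and 14.4% were lower and 10.3%, 9.47% and 12.7% higher.

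**Figure D3:**
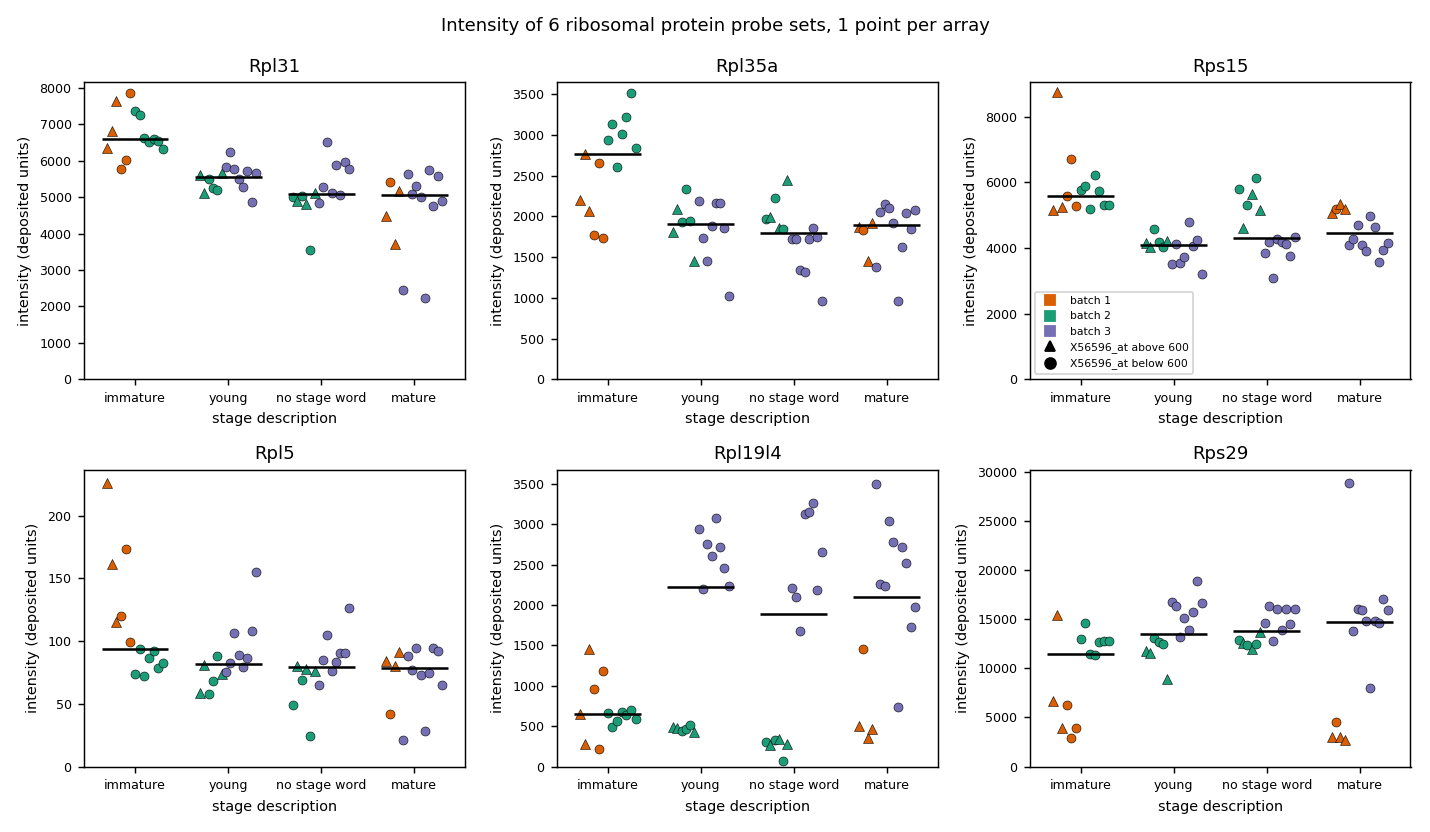
Intensity on each array (vertical axis, linear, deposited units) of Rpl31, Rpl35a, Rps15, Rpl5, Rpl19l4 and Rps29 by stage description, with colour for the batch, triangles for X56596_at above 600 and bars for medians. The Rpl31 arrays of mature kidney all lie below the immature range of 5774 to 7868, while the medians of Rpl19l4 and Rps29 differ between colours with ranges that overlap in some groups.

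The 2 members that were higher also differed between batches. Rpl19l4, annotated as a copy of Rpl19, had the largest spread of all members (within-group SD 1.28 on the log2 scale) and rose by 1.26 ± 0.47 in mature kidney (limma, adjusted p = 0.0446). Its median was 2388 on the mature arrays of batch 3 and 484.4 on those of batch 1, against 806.4 on the immature arrays of batch 1. Among young arrays its median was 468.6 in batch 2 and 2657 in batch 3. Rps29, a zinc-binding protein of the small subunit, rose by 0.69 ± 0.27 with no stage word (adjusted p = 0.0458). It lay at 2924 to 15410 on immature arrays and at 12000 to 16390 with no stage word, and the mature arrays of X56596_at above 600, all of batch 1, read 2682 to 3061. A second probe set of Rps29, with a mean of 11860 against 12620, changed by 0.31 ± 0.20 with no stage word (limma, adjusted p = 0.249). With batch as a block the changes were -0.60 for Rpl19l4 in mature kidney (adjusted p = 0.144) and -0.25 for Rps29 with no stage word (adjusted p = 0.328). Without the block, leaving out any 1 of 19 arrays ended the call of Rpl19l4 (changes from 1.13 to 1.41), and any 1 of 14 that of Rps29 (0.56 to 0.76).

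The 7 members lower in all 3 comparisons were Rpl21, Rpl22, Rpl31, Rpl35a, Rps10, Rps15 and Rps23, which is 7 of 40 where 5.8% of all probe sets were. A further 7 were lower in 2 comparisons, 8 in 1 and 18 in none, where 6.39%, 7.46% and 80.4% of all probe sets were. The last set holds, for example, Rpl27 (-0.03 in mature kidney, adjusted p = 0.847) and Rpl18 (0.01, adjusted p = 0.959), beside Rps24 (-0.57 ± 0.25, adjusted p = 0.0871) and Rpl30 (-0.19 ± 0.34, adjusted p = 0.709) with wider errors. Rpl27a and Rpl19, among the members with the highest mean intensity, had medians of 8217 and 7830 in immature and 7094 and 7367 in mature kidney, with overlapping ranges. The members' median within-group SD was 0.32 on the log2 scale, against 0.43 for all probe sets tested and 0.36 for those of like mean level. The split by the pyrimidine run gave medians in mature kidney of -0.254 in the 26 members with a run of 8 or more (11 lower) and -0.271 in the 8 without (2 lower). In young kidney these were -0.294 (12 lower) and -0.171 (1 lower), and with no stage word -0.291 (13 lower) and -0.198 (1 lower). Of all probe sets 14.1% were lower in mature kidney, 9.21% in young kidney and 14.4% with no stage word. No difference between the 2 sets was tested.

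**Figure D4:**
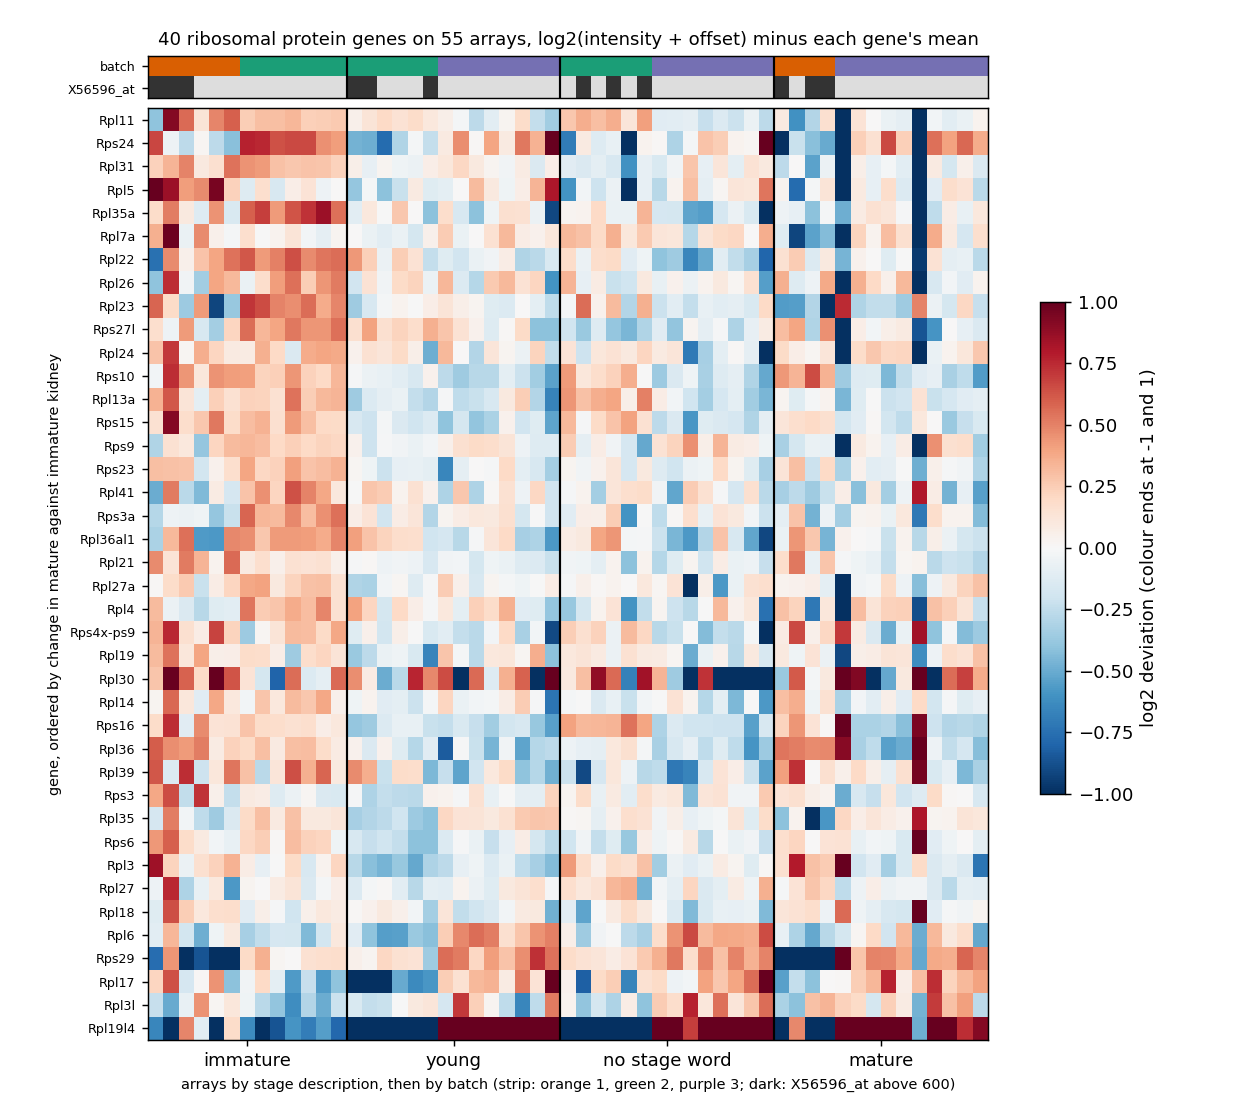
Log2 deviation of each of the 40 members (rows, ordered by change in mature against immature kidney) from its own mean on each of the 55 arrays (columns, by stage description and then batch), red above and blue below, with strips for batch and for X56596_at. The immature columns are mostly red, mature replicates 1 and 9 stand out as mixed dark columns, and Rpl19l4 is mostly blue in the columns of batches 1 and 2 and mostly red in those of batch 3.

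Among the later groups 0 of 40 members passed in any comparison. In mature against young kidney 7 had an unadjusted p under 0.05 (limma), and 1.19% of all probe sets were lower and 0.61% higher. The largest of these were Rpl7a (-0.39, adjusted p = 0.183), Rpl3 (0.37, adjusted p = 0.0914) and Rpl11 (-0.36, adjusted p = 0.207). In the group with no stage word against young kidney 4 had an unadjusted p under 0.05 (0.168% and 0.061% of all probe sets called lower and higher), and in mature against no stage word 8 (0.214% and 0.198%). The members' medians were -0.003, 0.011 and -0.018, those of all probe sets -0.020, -0.011 and -0.004.

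Within batches the counts differed. Inside batch 1, with 4 mature and 6 immature arrays, 0 members passed (limma; 0.427% of all probe sets were lower and 0.29% higher), 28 of 40 were below 0 and their median was -0.122, against -0.055 for all probe sets. Rpl5 (-0.86 ± 0.25, adjusted p = 0.147), Rpl11 (-0.54 ± 0.26, adjusted p = 0.373) and Rpl31 (-0.52 ± 0.17, adjusted p = 0.185) had changes near or above those over all arrays, and Rps10 was at 0.09 (adjusted p = 0.862). Inside batch 2 the members lower in young kidney were 21 and those higher 0 (12.6% and 16.7% of all probe sets), and with no stage word 20 and 2 (23.7% and 19.7%). All 7 immature arrays there carry the high 18S reading. In that batch 9 members were higher and 2 lower with no stage word than in young kidney (8.83% and 18.3% of all probe sets). The higher ones were Rpl13a, Rpl17, Rpl19, Rpl3, Rpl35, Rpl7a, Rps10, Rps15 and Rps16, and the lower ones Rpl19l4 and Rps27l. Inside batch 3, which has no immature array, 0 members passed in any of the 3 comparisons.

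On the arrays with X56596_at above 600 most members differed little in mean level from the others of their stage. The difference of log2 means between the sides, averaged over the 4 stage descriptions, had a median of 0.07 over the members, with 27 of 40 higher above 600. A difference of 0.5 or more was present in 3 members and 6.61% of all probe sets: Rpl19l4 (-1.50), Rps29 (-0.79) and Rpl17 (-0.52). Members higher above 600 in all 4 stages numbered 8 (8.33% of all probe sets) and lower in all 4 numbered 1 (9.9%). The sides differ in batch, since the arrays above 600 of immature and mature kidney all belong to batch 1 and those of young kidney and of the group with no stage word to batch 2. Between arrays of the same batch the median was -0.004 and 19 of 40 members were higher above 600. A mean difference of 0.5 or more was present in 0 members and in 6.67% of all probe sets. Here 2 members were higher above 600 in all 4 stages (7.4% of all probe sets) and 0 lower (10.2%). The largest mean differences were then Rpl5 (0.44) and Rpl19l4 (-0.28), while Rps29 lay at -0.007. Differences within single stages were larger and partly cancelled in these means. Rps29 was at 0.84 in immature and -0.63 in mature kidney, and Rpl19l4 at 0.57 with no stage word and -1.70 in mature kidney. The mature difference within the batch rests on 1 array below 600. Rpl31 read 6342.8, 6823.4 and 7627.0 on the immature arrays above 600, within the 5774 to 7868 of those below.

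**Figure D5:**
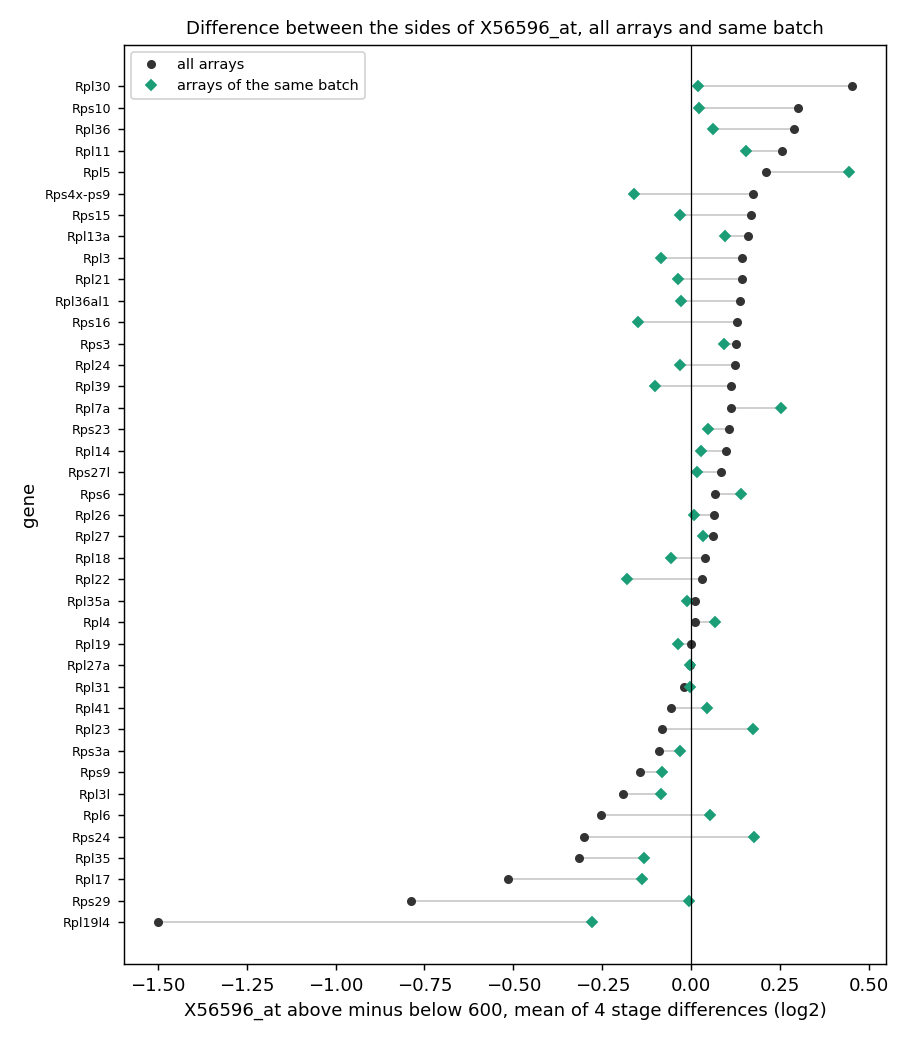
Difference in mean log2 intensity between arrays with X56596_at above and below 600, averaged over the 4 stage descriptions (horizontal axis), for each of the 40 members over all arrays (dark points) and between arrays of the same batch (green diamonds). The dark points reach from -1.50 to 0.45 and the diamonds from -0.28 to 0.44.

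Stage comparisons were repeated on each side. Above 600, with 3 arrays a group, 2 members were lower in mature kidney, Rpl31 (-0.64 ± 0.16, adjusted p = 0.0376) and Rpl5 (-0.81 ± 0.21, adjusted p = 0.0435), where 2.18% of all probe sets were lower and 3.52% higher, and the members' median was -0.253. The 3 mature arrays of Rpl31 read 4492.6, 3725.6 and 5171.3. Rpl5 read 226.4, 161.2 and 115.0 on the immature arrays above 600, 58.9, 80.8 and 74.2 on the young, 80.3, 78.1 and 76.6 with no stage word and 84.6, 80.6 and 91.4 on the mature. With 3 arrays a group, the share of all probe sets that lie wholly apart was not counted, so no separation is read here. Rpl5 was also lower above 600 in young (-1.04 ± 0.21, limma, adjusted p = 0.00727) and no stage word kidney (-0.92 ± 0.21, adjusted p = 0.0143). Above 600 the immature arrays are all of batch 1 and the young and no stage word arrays all of batch 2, so stage and batch cannot be told apart in the latter 2 comparisons. Inside batch 2 the Rpl5 arrays lay at 71.9 to 94.1 in immature, 58.0 to 88.5 in young and 24.3 to 80.3 in no stage word kidney. In young kidney 7 members were lower above 600 and with no stage word 2, where 5.87% and 6.15% of all probe sets were lower and 9.73% and 6.58% higher. Below 600, where 10 immature arrays met 11 of each other group, the members lower and higher were 13 and 2 in mature (15.9% and 12.4%), 9 and 2 in young (10.1% and 9.15%) and 15 and 3 with no stage word (15% and 14.5%).

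Other probe sets read the same transcripts in part. Of the 19 further probe sets of members 18 were tested, and 13 had the sign of the member in mature against immature kidney, 14 in young and 13 with no stage word. They were called lower in 5, 3 and 5 cases and higher in 0. Of all probe sets 14.1%, 9.21% and 14.4% were lower and 10.3%, 9.47% and 12.7% higher in these comparisons. Of the further probe sets of Rps15 1 went the other way in all 3 comparisons (0.37, 0.04 and 0.02 in mature, young and no stage word kidney) and 1 the same way (-0.78, -0.21 and -0.04), neither being called, and 1 of Rpl6 was called lower in mature kidney (-0.45, adjusted p = 0.0265) where the member itself was at 0.04. A further 39 probe sets carry several symbols with a ribosomal protein name among them and were no members. Of the 37 tested, 23 were lower in mature, 11 in young and 8 in no stage word kidney and 0 higher, with medians of -0.404, -0.238 and -0.197. With batch as a block 7, 3 and 5 were lower, where 7.67%, 4.38% and 11.4% of all probe sets were. Inside batch 1 0 were lower in mature kidney (0.427% of all probe sets), with 30 of 37 below 0.

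Other genes of protein synthesis were read from lists. Of 3 ribosomal proteins outside the name rule, Rplp0 and Rpsa were at -0.02 and -0.01 in mature kidney and Rack1, a scaffold on the small subunit, at -0.17, with 0 called. Rack1 was lower in young kidney (-0.56, adjusted p = 0.00335). With no stage word Rplp0, a protein of the ribosomal stalk, was higher (0.35, adjusted p = 0.0111) and Rack1 lower (-0.39, adjusted p = 0.0307), the list's median being 0.217, and with batch as a block 0 of the 3 were called there. Of 4 elongation factors 0 were called in mature or young kidney, with Eef2, which moves the ribosome along the mRNA, at 0.09 (adjusted p = 0.533) and Eef1g at -0.27 (adjusted p = 0.0538). With no stage word Eef2 was higher (0.26, adjusted p = 0.0489) and the list's median was 0.206, and with batch as a block Eef2 was at -0.002 (adjusted p = 0.992). The list of initiation factors was drawn by gene symbol and so takes in Eif2ak3, a kinase of the unfolded protein response. Of its 22 tested genes 6 were lower and 1 was higher in mature kidney. They were led by the helicase gene Eif4a2 (-1.17 ± 0.22, limma, adjusted p = 8.4e-05), Eif2ak3 (-0.91 ± 0.18, adjusted p = 1.4e-04) and Eif2s1 (-0.42 ± 0.08, adjusted p = 1.5e-04). In young kidney 5 were lower and 0 higher, and with no stage word 9 and 3. Of all probe sets 14.1% in mature, 9.21% in young and 14.4% in no stage word kidney were lower. Those higher were 10.3%, 9.47% and 12.7% in this order. Both sets of shares stand beside these and the following counts. With batch as a block 5, 1 and 5 genes of the initiation factor list were lower, where 7.67%, 4.38% and 11.4% of all probe sets were. Eif4a2 was then at -0.68 in mature kidney (limma, adjusted p = 0.0282). Among 12 genes of ribosome assembly and RNA polymerase I the nucleolar helicase gene Ddx21 (-0.61 ± 0.12, adjusted p = 1.0e-04) and Gnl3, nucleostemin (-0.39, adjusted p = 0.0361), were lower and Tcof1 was higher (0.37, adjusted p = 0.0459) in mature kidney. The counts of that list were 1 lower and 1 higher in young kidney and 3 and 1 with no stage word. With batch as a block 1, 0 and 1 were lower in mature, young and no stage word kidney, and neither Gnl3 (adjusted p = 0.231) nor Tcof1 (adjusted p = 0.75) passed in mature kidney.

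The ribosomal proteins of mitochondria, which build a separate ribosome, were lower in 7 of 14 genes in mature kidney, 3 in young and 6 with no stage word, with 0 higher and medians of -0.321, -0.23 and -0.291, where 14.1%, 9.21% and 14.4% of all probe sets were lower. Mrps6 (-0.88 ± 0.13, adjusted p = 7.4e-07), Mrpl58 (-0.33 ± 0.08, adjusted p = 0.00207) and Mrpl50 (-0.52 ± 0.15, adjusted p = 0.00752) had the smallest p in mature kidney. With batch as a block 3, 1 and 4 were lower, and Mrpl50 did not pass in mature kidney (adjusted p = 0.0806). Of 8 genes of S6 kinases and the mTOR pathway, Rheb, which activates mTOR, was lower (-0.88 ± 0.20, adjusted p = 0.00103) and Akt2 higher (0.61 ± 0.14, adjusted p = 8.7e-04) in mature kidney, while Mtor (0.18, adjusted p = 0.266) and Rps6kb1 (-0.08, adjusted p = 0.652) did not pass. The counts lower and higher were 0 and 2 in young kidney and 1 and 3 with no stage word. Of all probe sets 10.3% were higher in mature kidney, 9.47% in young kidney and 12.7% with no stage word. With batch as a block Rheb was at -0.56 in mature kidney (adjusted p = 0.0856) and Akt2 at 0.60 (adjusted p = 0.00212).

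Markers of cell types moved with the groups as well. Of 6 genes of dividing cells 4 were lower in mature kidney, Top2a, Cdk1, Pcna and Cdc20, 1 in young and 4 with no stage word. Their summed intensity was 1908 to 3666 on immature, 1424 to 2705 on young, 823.4 to 2028 on no stage word and 1135 to 1680 on mature arrays. Erythroid genes were lower in 2 of 3 in mature kidney, 1 in young and 2 with no stage word, with summed intensities of 9765 to 20270 on immature and 5841 to 12000 on mature arrays. Of 8 distal nephron and collecting duct genes 5 were lower and 1 was higher in mature kidney, 4 and 0 in young, and 5 and 1 with no stage word. Of 8 proximal tubule genes 1 was lower and 2 were higher in mature kidney, 2 and 5 in young, and 2 and 3 with no stage word, and their summed intensity was 37190 to 63240 on immature and 32870 to 79220 on mature arrays. With batch as a block the proximal tubule counts were 1 and 2 in mature, 0 and 1 in young, and 0 and 2 with no stage word. Genes lower with the block were, in this order, 3, 1 and 4 of dividing cells, 2, 0 and 2 erythroid and 5, 3 and 4 distal. Of all probe sets 7.67%, 4.38% and 11.4% were lower and 4.97%, 4.52% and 8.68% higher with the block. Without it 14.1%, 9.21% and 14.4% were lower and 10.3%, 9.47% and 12.7% higher. Without the block, the lists of thick ascending limb (5 genes), podocyte (3), endothelial (5), smooth muscle (6) and immune cells (5 of 8 on the array) had 0 or 1 member called in each direction in these 3 comparisons. The part of any of these cell types in the levels of the ribosomal protein genes was not tested.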

How the data were processed

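The authors deposited 1 intensity for each of 8799 probe sets on each of 55 arrays, on a linear scale as the values show; how probe sets were summarised and scaled is not stated in the labels. The trimmed mean (2%) lay at 500.2 to 500.7 on every array, so the deposited scaling was kept. Values were used as log2(intensity + 15.82), the offset being 0.1 times the overall median, which understates changes of dim probe sets. After removal of 59 controls and of probe sets with a mean below the 25th percentile, 6555 were tested. All arrays entered 1 fit of 4 group means in limma 3.58.1 (R 4.3.3; lmFit, eBayes, 2-sided contrasts, moderated F test), with Benjamini-Hochberg adjustment. Alternatives changed scaling, offset, filter, probe set choice, array weights, batch, side of X56596_at and arrays. Batches came from Ward clustering of 42 control probe sets, cut into 3. Fits were tested on simulated data. Named genes were the 5 largest falls and 3 largest rises past the threshold in each comparison, members with the highest or lowest mean or spread, and a few by function; further members were named after their values were seen. Members, lists and batches were chosen with earlier results of these data known. Promoter windows came from RefSeq (GRCr8). The number of arrays limits the precision, and signal over background was not analysed here. Figures used matplotlib 3.10.9.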

Additional observations from a re-analysis of the deposited data

Results flagged for a closer look

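The change between stages differed between the sides of X56596_at in 5 cases, tested as an interaction of side and stage in limma with Benjamini-Hochberg adjustment over all probe sets. This test was added after seeing the data. For Rpl35 the change in mature against immature kidney was lower by 1.03 above 600 (interaction of -1.03, adjusted p = 0.00712), and against the group with no stage word the interaction was -1.023 (adjusted p = 0.0179). Rpl35 read 3602.3, 1722.3 and 3200.6 on the mature arrays above 600 and 4254.6, 6833.9 and 4692.5 on the immature ones. For Rps29 the interaction was -1.936 in mature against immature kidney (adjusted p = 0.0201) and -2.059 in mature against no stage word (adjusted p = 0.026). For Rpl17 it was -1.882 in young against immature kidney (adjusted p = 0.0168), where the young arrays above 600 read 116.8, 26.4 and 161.6. The shares of all probe sets called were 1.82% in mature against immature, 3.3% in young against immature and 0.351% in mature against no stage word. The arrays above 600 lie in batches 1 and 2 and most of those below 600 from the later groups in batch 3, so side and batch overlap, and the part of the batch was not tested.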

How the results depend on the processing

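Members called over the 4 groups numbered 18. They were 32 with array weights, 11 with batch as a block, 6 on arrays above 600 alone, 0 inside batch 3 and 9 without the immature arrays of batch 2, where 60.8%, 20.5%, 18.8%, 0.473% and 17% of all probe sets were called, against 28.5%. In mature against immature kidney (15 called) these counts were 24 with array weights (56.3% of all probe sets), 7 with the block (12.6%) and 2 above 600 (5.71%). In batch 1 alone 0 were called (0.717%), and 5 were without the immature arrays of batch 2 (9.58%). In young against immature kidney (14) the counts were 29 with array weights (44.3%), 7 with the block (8.89%) and 7 above 600 (15.6%). With no stage word against immature kidney (16) they were 27 with array weights (58.4%), 2 above 600 (12.7%) and 7 without the immature arrays of batch 2 (15.5%). Among the later groups, where 0 were called, mature against young gave 1 with array weights (3.97% of all probe sets) and 2 above 600 (7.35%). No stage word against young gave 2 with array weights (5.68%) and 11 inside batch 2 (27.1%). It gave 2 with the block and without the arrays of GAPDH ratio above 3 (3.83%). Mature against no stage word gave 1 with the block (5.26%), 1 above 600 (2.23%) and 4 with the block and without those arrays (13%). The cause was not tested. Leaving out 1 array at a time gave 16 to 19, 12 to 18, 11 to 17 and 12 to 19 for the first 4 of these results, 0 to 1 in mature against young (1 without mature replicate 14) and 0 in the other pairs. Turns of sign were sought among the 34 called results of the genes chosen by the naming rules, and other members were not included. Rpl7a in mature kidney turned with array weights (0.0037). Rpl19l4 there turned with the block (-0.60), above 600 (-0.55) and inside batch 1 (-0.11). It also turned with the block and without the arrays of high GAPDH ratio (-0.53). Rps10 in mature kidney turned above 600 (0.10) and inside batch 1 (0.089), and Rps27l there inside batch 1 (0.17). Rpl22 turned above 600 (0.11 in mature, 0.22 in young and 0.10 in no stage word kidney). Rps29 with no stage word turned with the block (-0.25, and -0.24 without the arrays of high GAPDH ratio). The quantile normalization gave 17, 16 and 22 members lower in mature, young and no stage word kidney (13.9%, 9.49% and 13.7% of all probe sets). All 14 lower in mature kidney were among the 17. Leaving out the immature arrays of batch 2, joining the block with the GAPDH limit and the same-batch comparison of sides were chosen after seeing the data. No paired analysis was possible because the titles carry 1 running number per array and no number that groups share.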
